A study of Mus musculus with 9 samples.

Results

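The late cornified envelope (Lce) and small proline-rich (Sprr) genes, with loricrin (Lor), involucrin (Ivl), Crct1, Kprp, Lelp1, envoplakin (Evpl) and periplakin (Ppl), were taken by gene symbol from the deposited table, which gave 45 of its 55401 features. They comprised 14 Lce1 genes, 6 Lce3 genes, 13 Sprr2 features, 4 further Sprr genes (Sprr1a, Sprr1b, Sprr3 and Sprr4) and 8 single genes, which were the 7 named above and Lce6a. Of the 45, 41 had enough counts to be tested, among 21925 features tested in all. Ear messenger RNA of C57 mice was sequenced, with 9 libraries in 3 groups of 3. The first group received MC903 together with paeonol at 200 mg/kg, the second received MC903, and the control group received absolute ethanol. MC903 (calcipotriol) is an analogue of vitamin D that, painted on mouse skin, serves as a model of atopic dermatitis. Paeonol is a phenol from the root bark of peony. No group with paeonol alone was analysed here, and the labels give no vehicle for paeonol, so paeonol cannot be told apart from its vehicle and handling. The labels give neither age nor sex, and do not state that each library is a different animal. The p-values below therefore reflect the scatter between these libraries, part or all of which may be technical.

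The cornified envelope is the protein shell that replaces the plasma membrane of keratinocytes in the outermost epidermis. Transglutaminases cross-link its precursors: involucrin, envoplakin and periplakin form an early scaffold, loricrin makes up most of the mass, and small proline-rich proteins act as cross-bridges. Most of these precursors are encoded side by side in the epidermal differentiation complex, where Lce1 genes are expressed in normal epidermis, whereas Sprr2 genes in mouse skin and LCE3 genes in human skin are known to be switched on by injury and inflammation.

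In GRCm38, 43 of the 45 features lay on chromosome 3, starting with Lor at chr3:92080271-92083142 and ending 937.5 kb further on with Lce1m at chr3:93017810-93019060. The 13 Sprr2 features followed Lor between chr3:92215799 and 92433925, and Ivl and Lce6a separated the Sprr genes from Lce1. Lce1a1 to Lce1l occupied chr3:92646535-92851286, with Kprp between Lce1k and Lce1l. The 6 Lce3 genes came next at chr3:92925287-92993426, followed by Crct1 and Lce1m. Evpl lay at chr11:116220559-116238077 and Ppl at chr16:5086291-5132421.

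The promoters of 8 genes are shown, all but Lce1a2 described by level below. These promoters allow classes that moved together or apart to be compared at the start of transcription. They were taken from RefSeq in GRCm38.p6, from 200 bases before to 25 bases after the annotated start, 5′ to 3′. Capitals mark TATAAA (the letters of a canonical core promoter box), TGANTCA (an AP-1 motif, where N is any base) and ATAAAAG, a motif added after the sequences had been looked at.
Lor, chr3:92083118-92083342, minus strand: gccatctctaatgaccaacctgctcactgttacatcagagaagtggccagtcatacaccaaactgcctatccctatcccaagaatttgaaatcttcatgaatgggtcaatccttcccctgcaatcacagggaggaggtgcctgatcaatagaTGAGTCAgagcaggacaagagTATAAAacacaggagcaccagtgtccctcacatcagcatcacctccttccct
Lce1a2, chr3:92670291-92670515, minus strand: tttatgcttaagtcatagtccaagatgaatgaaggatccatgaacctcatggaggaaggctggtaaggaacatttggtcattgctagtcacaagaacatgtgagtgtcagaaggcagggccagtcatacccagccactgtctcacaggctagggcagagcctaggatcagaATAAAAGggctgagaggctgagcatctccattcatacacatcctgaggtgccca
Lce1m, chr3:93019037-93019261, minus strand: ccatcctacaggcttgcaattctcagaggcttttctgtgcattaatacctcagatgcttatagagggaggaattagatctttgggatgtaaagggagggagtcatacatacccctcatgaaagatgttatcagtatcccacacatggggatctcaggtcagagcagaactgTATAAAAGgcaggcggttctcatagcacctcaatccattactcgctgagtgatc
Lce3c, chr3:92944286-92944510, plus strand: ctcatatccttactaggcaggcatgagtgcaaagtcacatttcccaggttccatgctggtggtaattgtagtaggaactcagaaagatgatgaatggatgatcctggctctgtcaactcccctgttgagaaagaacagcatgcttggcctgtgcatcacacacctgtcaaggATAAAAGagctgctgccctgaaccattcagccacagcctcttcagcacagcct
Lce3d, chr3:92957190-92957414, plus strand: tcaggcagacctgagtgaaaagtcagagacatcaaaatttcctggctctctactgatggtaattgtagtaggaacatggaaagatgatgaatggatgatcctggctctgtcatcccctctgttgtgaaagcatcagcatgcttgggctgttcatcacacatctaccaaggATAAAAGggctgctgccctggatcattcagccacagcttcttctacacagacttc
Sprr1b, chr3:92438755-92438979, minus strand: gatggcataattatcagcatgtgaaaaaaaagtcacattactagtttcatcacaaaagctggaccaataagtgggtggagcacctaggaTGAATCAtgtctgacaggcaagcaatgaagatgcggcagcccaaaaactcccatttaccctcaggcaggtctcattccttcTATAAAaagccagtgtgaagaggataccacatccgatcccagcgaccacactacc
Sprr2b, chr3:92316505-92316729, plus strand: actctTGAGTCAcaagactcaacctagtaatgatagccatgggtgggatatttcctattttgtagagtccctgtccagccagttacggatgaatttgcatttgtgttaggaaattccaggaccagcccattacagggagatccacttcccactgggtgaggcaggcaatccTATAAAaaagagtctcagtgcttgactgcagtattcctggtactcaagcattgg
Sprr2h, chr3:92385485-92385709, plus strand: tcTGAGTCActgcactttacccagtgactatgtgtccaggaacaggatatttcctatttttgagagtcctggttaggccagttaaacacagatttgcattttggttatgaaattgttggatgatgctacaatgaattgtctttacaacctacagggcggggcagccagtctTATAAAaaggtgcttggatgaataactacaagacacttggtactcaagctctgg

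RefSeq promoters of 300 bases were matched for 37 of the 45 features and searched on both strands. TATAAA was in 7 of 10 Sprr2 promoters and 3 of the 4 promoters of the other Sprr genes, against 2 of 13 Lce1, 1 of 6 Lce3 and 13.6% of the 32851 promoters in the table. It was also in 3 of the 4 matched promoters of single genes, those of Lor, Ivl and Lce6a, in the last on the opposite strand. TGANTCA was in 7 of 10 Sprr2 promoters, 182 to 198 bases before the start, in those of Sprr1a and Sprr1b among the 4 other Sprr genes, and in those of Lor and Ivl, 48 and 116 bases before it. It was in 0 of 13 Lce1 and 0 of 6 Lce3 promoters, against 7.81% of all promoters. The Sprr2 promoters with neither TATAAA nor TGANTCA were those of Sprr2a1, Sprr2a2 and Sprr2a3. Of these, Sprr2a1 and Sprr2a2 had the highest mean CPM of the class. ATAAAAG, which overlaps TATAAA where it reads TATAAAAG, as in Lce1m, was found in the sense direction 28 to 30 bases before the start in 10 of 13 Lce1 and 5 of 6 Lce3 promoters. It stood 15 to 45 bases before the start in 0.968% of all promoters. The matched Lce1 and Lce3 promoters without it there were those of Lce1a1, Lce1b, Lce1k and Lce3a. The Lce promoters printed above are a chosen set in which all carry it, so they do not stand for those without it. The half-site AGGTCA, to which nuclear receptors bind, was in 4 of 13 Lce1, 0 of 6 Lce3 and 1 of 10 Sprr2 promoters, against 16.3% of all. Among the matched single genes it was in 2 of 4 (Ivl and Lce6a). The palindrome AACCGGTT of grainyhead-like factors was in none of the 37, against 0.146% of all. These are matches of letters and not binding sites. Most matched Lce1 and Lce3 promoters thus shared the letters ATAAAAG close to the start, although the levels of these classes moved in opposite directions below.

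Levels are given in CPM, the count divided by the scaled size of the library in M counts. Library totals were 54.26 to 57.75 M counts. Each change is a log2 difference from a single edgeR fit of all 9 libraries, with its standard error (SE), and counted as called when its p, adjusted by Benjamini and Hochberg over all 21925 features, was under 0.05. The label MC903 was checked with Cyp24a1, which encodes the enzyme that inactivates vitamin D and is a direct vitamin D target. It averaged 1947 ± 817 CPM in MC903 + paeonol ears, 4613 ± 314 in MC903 ears and 9.99 ± 2.61 in control ears (SD, n = 3 each). Tslp, a cytokine that MC903 is known to induce in keratinocytes, averaged 363 ± 136 CPM, 1039 ± 384 and 6.37 ± 0.599 in the same groups. These are bulk tissue libraries, in which fewer cells of a type and less RNA per cell cannot be told apart. Markers of ear tissue were present (keratinocytes, skeletal muscle, fat and cartilage), apart from the cartilage gene Matn1, which had 0 counts.

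In MC903 ears the genes split by class. Lce1 and most single genes fell, whereas Lce3, Sprr1 and Sprr2 rose. Of the 41 tested features, 19 were higher and 18 lower in MC903 ears than in control ears, against 46.8% of all tested features called (23.0% higher and 23.8% lower). By class, 12 of 14 Lce1 genes and 6 of 7 single genes were lower, and all 6 Lce3 genes, both Sprr1 genes and 10 of 12 Sprr2 features were higher. The median log2 change was -0.85 for Lce1, -0.72 for the single genes, 2.54 for Lce3 and 3.25 for Sprr2, and -0.02 for all features. Without overlap between the groups were 39 of the 41, 20 above control and 19 below it, against 58.1% of all features (28.3% above and 29.8% below).

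With paeonol added, 21 of the 41 features were higher and 7 lower in MC903 + paeonol ears than in MC903 ears, against 29.7% of all tested features (15.3% higher and 14.3% lower). All 14 Lce1 genes and all 7 tested single genes were higher, and all 6 Lce3 genes and Sprr1b were lower. None of the 12 tested Sprr2 features was called by edgeR; 1 of them, Sprr2b, had an unadjusted p under 0.05 and was called by DESeq2, and it was higher. Other edgeR fits called 2 features of the class lower: Sprr2g in the fit of 2 groups and without control library 1 (adjusted p = 0.032 and 0.0283), and Sprr2e without MC903 library 3 (0.0154). The median log2 change was 1.68 for Lce1, 1.48 for the single genes, -1.58 for Lce3 and 0.22 for Sprr2, and 0.00 for all features. The groups did not overlap for 22 features above MC903 ears and 9 below them, against 43.9% of all features (21.9% above and 22.0% below). The comparisons with MC903 ears and with control ears share the MC903 or the control libraries, so their values are set side by side and are not independent of each other.

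Against control ears, 32 features were higher in MC903 + paeonol ears and 0 lower, against 30.9% of all tested features called (16.3% higher and 14.5% lower). No further feature was lower at an unadjusted p under 0.05 or by DESeq2. The 32 were 12 of 14 Lce1 genes, 3 of 6 Lce3 genes, 5 of 7 single genes, both Sprr1 genes and 10 of 12 Sprr2 features. Groups without overlap numbered 32 of 41, all of them above control, against 46.4% of all features (22.8% above and 23.6% below).

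**Figure D1:**
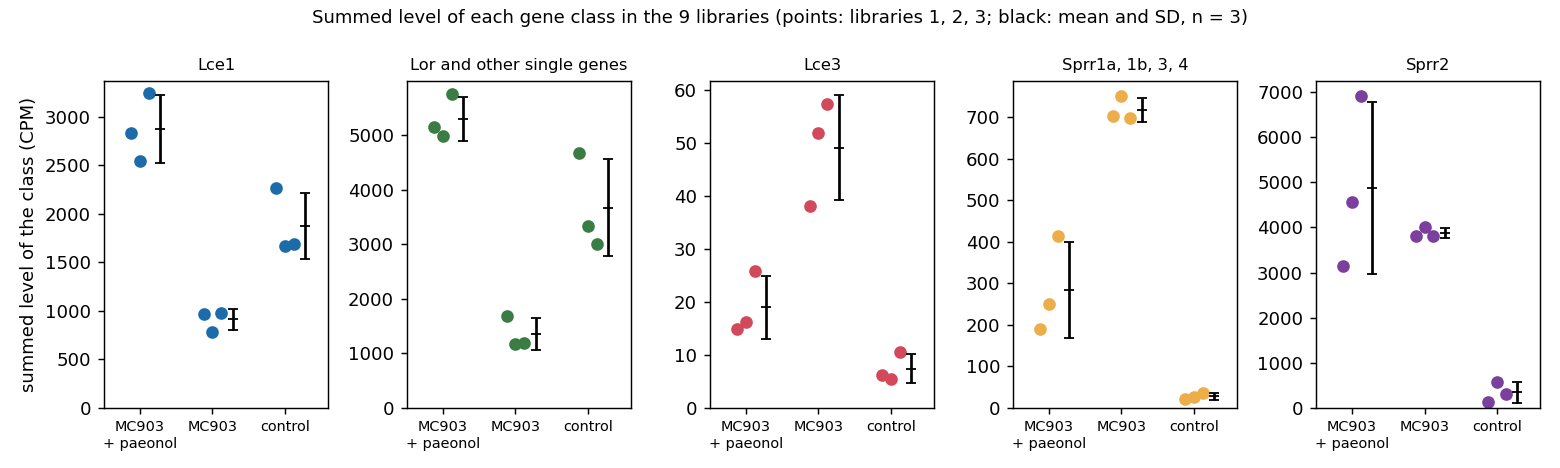
Summed level (CPM) of each gene class in each library, with MC903 + paeonol, MC903 and control from left to right; points are libraries, and black marks give the mean and SD (n = 3). Lce1 and the single genes are lowest in MC903 ears, Lce3 and Sprr1 are highest there, and Sprr2 is high in both MC903 groups with a wide spread among the MC903 + paeonol libraries.

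Summed over the class, Lce1 stood at 2833, 2547 and 3247 CPM in MC903 + paeonol ears, 972, 786 and 977 CPM in MC903 ears and 2269, 1668 and 1686 CPM in control ears. The 3 groups did not overlap, and the MC903 + paeonol libraries were above both others. Summed Lce3 was much lower in every group, at 14.9, 16.2 and 25.8 CPM in MC903 + paeonol ears, 38.1, 51.8 and 57.2 CPM in MC903 ears and 6.26, 5.36 and 10.5 CPM in control ears. Summed Sprr2 was 3134, 4568 and 6906 CPM in MC903 + paeonol ears, 3820, 4007 and 3812 CPM in MC903 ears and 129, 579 and 311 CPM in control ears. The MC903 + paeonol libraries lay on both sides of the MC903 libraries for Sprr2. All 45 features together came to 1.34% of the scaled library size in MC903 + paeonol ears, 0.691% in MC903 ears and 0.592% in control ears. The scaling factors were 0.947 to 0.992, 0.942 to 0.957 and 1.08 to 1.09 in these groups. As shares of unscaled counts, MC903 and control ears were therefore closer to each other.

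Per kilobase of exon, on which genes of different length can be compared, the composition of the summed level differed between the groups. Lce1 contributed 42.4% in MC903 + paeonol ears, 27.6% in MC903 ears and 55.1% in control ears, and the single genes 29.2%, 12.7% and 40.4% in the same groups. Sprr2 contributed 24.4%, 39.0% and 3.46%, and the other Sprr genes 3.69%, 18.8% and 0.752%. Lce3 never exceeded 1.94%, its share in MC903 ears. Lor had the highest mean level of all members in MC903 + paeonol ears, at 1933 CPM per kb, and in control ears, at 1397 CPM per kb. In MC903 ears Sprr1b was first at 618 CPM per kb, followed by Sprr2a1 at 568, Sprr2a2 at 521 and Lor at 279. Sprr2a1 and Sprr2a2 overlap, and their counts cannot be told apart with certainty, so their ranks are uncertain. Their annotated exons cover 3003 and 2910 bases, against 784 in Sprr2b and 752 in Sprr2h. Such long exon totals lower a level per kb, and with it the share of Sprr2.

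Lor, the glycine-rich main component of the mature envelope, showed the largest change among the single genes in MC903 ears against control ears and with paeonol added. It was at 3340, 3271 and 3708 CPM in MC903 + paeonol ears, 718, 408 and 360 CPM in MC903 ears and 3275, 2249 and 1929 CPM in control ears. The MC903 libraries were below all others, and the MC903 + paeonol and control libraries overlapped. Lor was 5.01-fold lower in MC903 ears than in control ears (log2 -2.33 ± 0.31 SE, edgeR adjusted p = 0.00068) and 6.94-fold higher in MC903 + paeonol ears than in MC903 ears (2.79 ± 0.32, adjusted p = 0.000658). Between MC903 + paeonol and control ears it was not called, at 0.47 with a 95% interval of -0.23 to 1.17 and an adjusted p of 0.293.

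Ivl, an early scaffold protein and transglutaminase substrate, was at 80.1, 71.3 and 82.0 CPM in MC903 + paeonol ears, 24.6, 15.3 and 14.3 CPM in MC903 ears and 38.8, 30.9 and 27.6 CPM in control ears. No group overlapped another, and the MC903 + paeonol libraries were highest. The log2 change was -0.85 ± 0.21 in MC903 ears against control ears (edgeR adjusted p = 0.00946), 2.11 ± 0.21 in MC903 + paeonol ears against MC903 ears (adjusted p = 0.000153) and 1.26 ± 0.21 against control ears (adjusted p = 0.00211). Kprp, keratinocyte proline-rich protein, was at 605, 542 and 781 CPM in MC903 + paeonol ears, 214, 148 and 196 CPM in MC903 ears and 442, 317 and 306 CPM in control ears. It had the same order of groups, also without overlap. Its log2 changes were -0.93 ± 0.20 (MC903 against control, edgeR adjusted p = 0.00591), 1.79 ± 0.21 (MC903 + paeonol against MC903, 0.000442) and 0.86 ± 0.20 (MC903 + paeonol against control, 0.0141).

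Crct1 and Lce6a, which code for small cysteine-rich and late envelope proteins, followed the same order. Crct1 averaged 237 ± 31.3 CPM in MC903 + paeonol ears, 88.1 ± 10.4 in MC903 ears and 145 ± 36.7 in control ears. Lce6a averaged 86.6 ± 13.0, 31.1 ± 2.94 and 48.0 ± 4.59 CPM in the same groups. All 3 comparisons were called for both genes. In MC903 ears against control ears the log2 change was -0.72 ± 0.18 for Crct1 and -0.63 ± 0.12 for Lce6a, and in MC903 + paeonol ears against MC903 ears it was 1.43 ± 0.18 and 1.48 ± 0.12. Without control library 2, the higher level of Kprp and Crct1 in MC903 + paeonol ears than in control ears was no longer called (edgeR adjusted p = 0.0556 and 0.057); leaving out control library 3 had this effect on Kprp (0.052) and leaving out MC903 + paeonol library 3 on Crct1 (0.0642).

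The plakins Evpl and Ppl, which tie the envelope to desmosomes and keratin filaments and lie outside the complex, differed from each other. Evpl was at 302, 336 and 323 CPM in MC903 + paeonol ears, 259, 233 and 232 CPM in MC903 ears and 190, 174 and 167 CPM in control ears. It was the 1 single gene higher in MC903 ears, with no overlap between any groups. Its log2 change was 0.45 ± 0.07 against control ears (edgeR adjusted p = 0.000319), and a further 0.41 ± 0.07 in MC903 + paeonol ears against MC903 ears (adjusted p = 0.00124). Ppl was at 511, 488 and 494 CPM in MC903 + paeonol ears, 350, 265 and 251 CPM in MC903 ears and 492, 395 and 401 CPM in control ears. The MC903 libraries were below all others, and the other groups overlapped. Its log2 change was -0.57 ± 0.12 in MC903 ears against control ears (edgeR adjusted p = 0.00328) and 0.79 ± 0.12 in MC903 + paeonol ears against MC903 ears (adjusted p = 0.000978). Lelp1 had at most 8 counts in a library and was not tested.

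**Figure D2:**
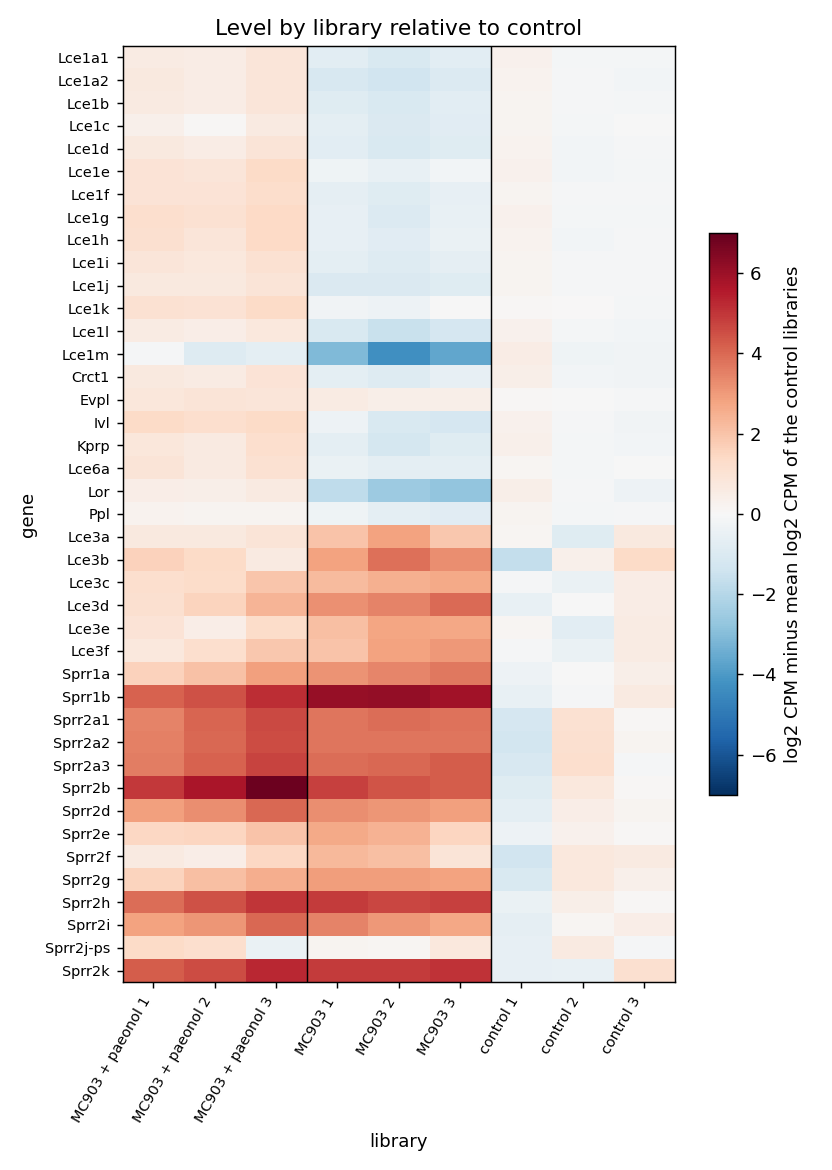
Level of the 41 tested genes (rows, by class) in each library (columns: MC903 + paeonol, MC903, control), as log2 CPM minus the mean log2 CPM of the control libraries; red is above and blue below control. Lce1 and the single genes are blue in the MC903 libraries apart from Evpl, and Lce3, Sprr1 and most Sprr2 are red in them.

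Lce1 genes code for small glycine- and cysteine-rich envelope proteins. Lce1a1 and Lce1c had the highest mean CPM of the class. Lce1a1 was at 430, 409 and 518 CPM in MC903 + paeonol ears, 170, 136 and 171 CPM in MC903 ears and 351, 256 and 257 CPM in control ears. The 3 groups did not overlap. Its log2 change was -0.86 ± 0.15 in MC903 ears against control ears (edgeR adjusted p = 0.00109), 1.51 ± 0.15 in MC903 + paeonol ears against MC903 ears (9.78e-05) and 0.65 ± 0.15 against control ears (0.00881). Lce1c averaged 258 ± 47.5 CPM in MC903 + paeonol ears, 111 ± 13.0 in MC903 ears and 199 ± 24.5 in control ears. It changed by -0.84 ± 0.14 and 1.21 ± 0.14 in the first and second of these comparisons, but was not called between MC903 + paeonol and control ears, where the groups overlapped (0.37 ± 0.14, 95% interval 0.05 to 0.69, edgeR adjusted p = 0.0789). There Lce1c was called higher by DESeq2 (adjusted p = 0.0212) and by edgeR without control library 1 (0.0481) or MC903 + paeonol library 2 (0.0198).

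Lce1m, at the far end of the complex and separated from the other Lce1 genes by the Lce3 block, differed most in MC903 ears. It was at 239, 138 and 161 CPM in MC903 + paeonol ears, 30.1, 13.2 and 20.8 CPM in MC903 ears and 372, 207 and 219 CPM in control ears. The MC903 libraries were below all others, and the other groups overlapped. Lce1m was 12.4-fold lower in MC903 ears than in control ears (log2 -3.64 ± 0.43, edgeR adjusted p = 0.000446) and 8.39-fold higher in MC903 + paeonol ears than in MC903 ears (3.07 ± 0.42, adjusted p = 0.00185). In every group its library 1 was the highest and its library 2 the lowest. Between MC903 + paeonol and control ears the log2 change was -0.57 with a 95% interval of -1.48 to 0.35 and an adjusted p of 0.325. The difference in size between Lce1m and the other Lce1 genes was not tested.

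Lce1l, just before the Lce3 block, had the next largest fall in MC903 ears. It was at 193, 184 and 218 CPM in MC903 + paeonol ears, 62.0, 44.3 and 59.4 CPM in MC903 ears and 164, 121 and 115 CPM in control ears, with no overlap between groups. It was 2.42-fold lower in MC903 ears than in control ears (log2 -1.27 ± 0.16, edgeR adjusted p = 0.000209) and changed by 1.84 ± 0.17 in MC903 + paeonol ears against MC903 ears (7.06e-05). Its higher level in MC903 + paeonol than in control ears (0.57 ± 0.16, adjusted p = 0.0256) was not called when libraries were scaled by their totals (0.0722), when no filter was used (0.0554), or without MC903 + paeonol library 1 or 3 or control library 2 or 3 (0.0521 to 0.0992).

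Lce1g and Lce1k were the members of the class furthest above control in MC903 + paeonol ears. Lce1g was at 178, 169 and 212 CPM in MC903 + paeonol ears, 54.3, 41.0 and 55.0 CPM in MC903 ears and 96.6, 71.6 and 72.8 CPM in control ears. No groups overlapped, and its change in MC903 + paeonol against control ears was 1.21 ± 0.15 on the log2 scale (edgeR adjusted p = 0.000439). Lce1k was at 57.5, 55.1 and 68.7 CPM in MC903 + paeonol ears, 23.1, 21.8 and 26.9 CPM in MC903 ears and 29.3, 28.1 and 25.5 CPM in control ears. MC903 and control ears overlapped for Lce1k, with a log2 change of -0.21 ± 0.11 (95% interval -0.45 to 0.03, edgeR adjusted p = 0.134), while MC903 + paeonol ears stood apart from both. Lce1e was also not called in MC903 against control ears (-0.36 ± 0.17, adjusted p = 0.113). With scaling by library totals, which moved the median log2 change of all features in that comparison to -0.21, Lce1k and Lce1e were both called lower (-0.40, adjusted p = 0.00765, and -0.55, adjusted p = 0.0177).

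The 6 Lce3 genes code for shorter Lce proteins and were at low levels in control ears. Lce3c was at 7.65, 7.99 and 12.8 CPM in MC903 + paeonol ears, 15.5, 18.8 and 20.9 CPM in MC903 ears and 3.18, 2.41 and 4.82 CPM in control ears. The 3 groups did not overlap, and MC903 + paeonol lay between the others. It was 5.30-fold higher in MC903 ears than in control ears (log2 2.41 ± 0.28, edgeR adjusted p = 5.02e-05), and changed by -0.96 ± 0.26 in MC903 + paeonol ears against MC903 ears (0.0201) and 1.45 ± 0.27 against control ears (0.0027). Lce3d was at 2.90, 3.95 and 7.02 CPM in MC903 + paeonol ears, 12.3, 14.9 and 20.7 CPM in MC903 ears and 0.944, 1.3 and 1.94 CPM in control ears. No groups overlapped, and MC903 + paeonol again lay in the middle. It had the largest rise of the class, 11.4-fold in MC903 ears against control ears (3.52 ± 0.39, adjusted p = 5.23e-05), and was 3.46-fold lower in MC903 + paeonol ears than in MC903 ears (-1.79 ± 0.36, adjusted p = 0.00428).

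Lce3b was at 0.954, 0.793 and 0.479 CPM in MC903 + paeonol ears, 2.21, 4.44 and 2.94 CPM in MC903 ears and 0.096, 0.394 and 0.777 CPM in control ears. The MC903 libraries were above all others, and MC903 + paeonol and control overlapped. Its log2 change was 2.92 ± 0.59 in MC903 ears against control ears (edgeR adjusted p = 0.00188) and -2.10 ± 0.56 in MC903 + paeonol ears against MC903 ears (0.0166). The other 3 genes, Lce3a, Lce3e and Lce3f, changed by 2.16, 2.45 and 2.62 in MC903 ears against control ears and by -1.53, -1.62 and -1.35 in MC903 + paeonol ears against MC903 ears. In MC903 + paeonol ears against control ears Lce3c, Lce3d and Lce3f were called higher, and Lce3a, Lce3b and Lce3e were not, with 95% intervals of -0.27 to 1.54, -0.47 to 2.10 and 0.05 to 1.61. The call of Lce3f was lost without control library 1 or 2 (edgeR adjusted p = 0.0809 and 0.0978) or MC903 + paeonol library 3 (0.121). The number of Lce3 genes called lower with paeonol depended on the libraries used. Without MC903 library 2 it was 2 of the 6, without MC903 + paeonol library 2 it was 3, and over all 9 libraries left out in turn it was 2 to 6. All 6 kept a negative log2 change in each of these fits.

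**Figure D3:**
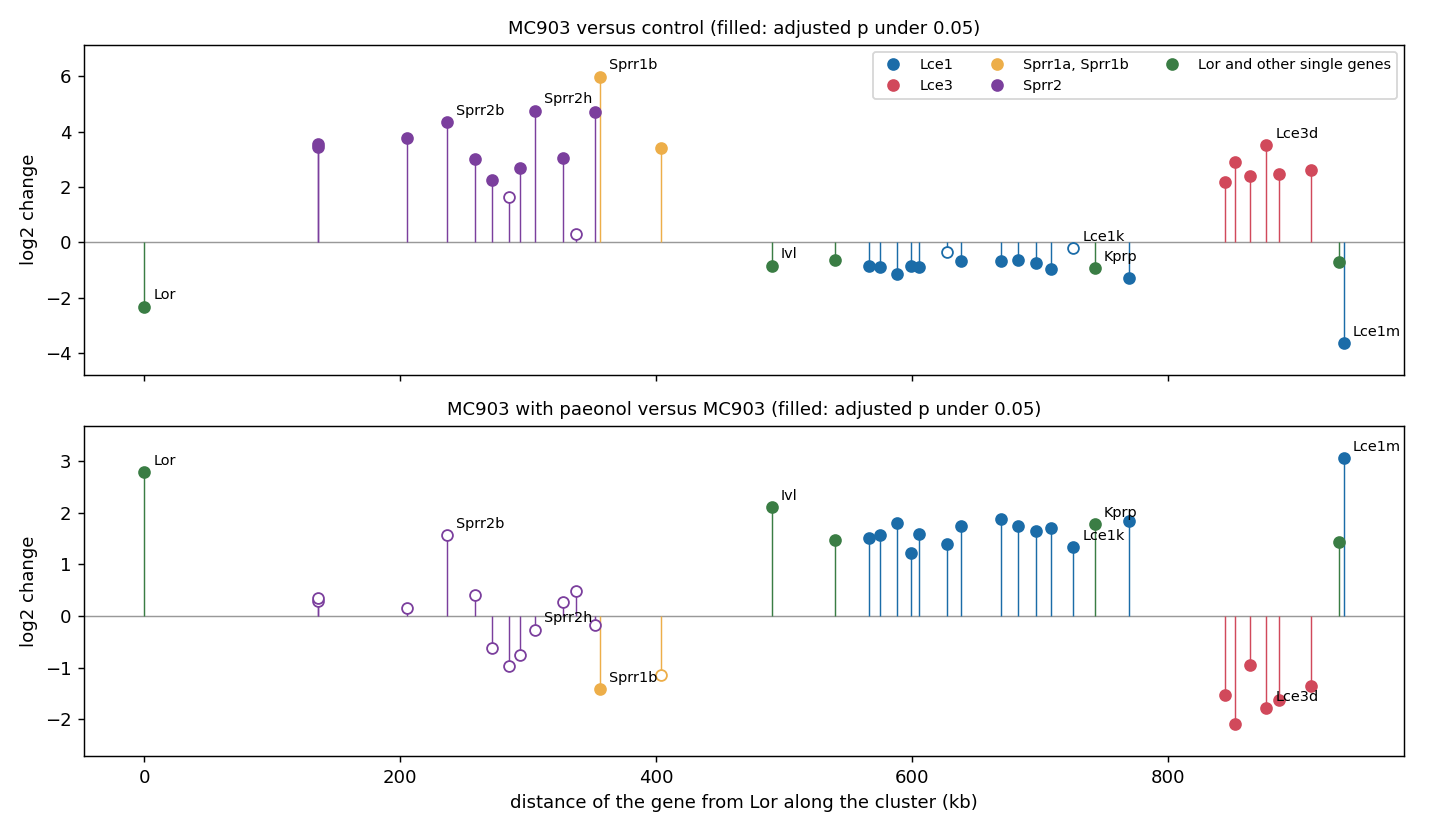
log2 change (vertical axis) of the tested members on chromosome 3 against their distance from Lor (kb), for MC903 versus control (top) and MC903 + paeonol versus MC903 (bottom); filled points had an adjusted p under 0.05. The Lce3 block, 845.0 to 912.0 kb from Lor, points the opposite way to Kprp and Lce1l on one side of it and Crct1 and Lce1m on the other in both panels.

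Sprr1a and Sprr1b, cross-bridging proteins of the envelope, were among the most strongly changed members. Sprr1b was at 133, 171 and 274 CPM in MC903 + paeonol ears, 534, 547 and 457 CPM in MC903 ears and 5.36, 7.12 and 11.8 CPM in control ears. The 3 groups did not overlap. Sprr1b was 63.4-fold higher in MC903 ears than in control ears (log2 5.99 ± 0.43, edgeR adjusted p = 3.4e-05), the largest change of any tested member in that comparison, and 23.8-fold higher in MC903 + paeonol ears than in control ears (4.57 ± 0.40, adjusted p = 0.000309). It was 2.67-fold lower in MC903 + paeonol ears than in MC903 ears (-1.41 ± 0.35, adjusted p = 0.022), a call that was lost without MC903 library 1 or 2 or MC903 + paeonol library 1 or 2 (adjusted p = 0.0565, 0.0616, 0.0647 and 0.0753).

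Sprr1a was at 57.3, 79.1 and 140 CPM in MC903 + paeonol ears, 168, 204 and 242 CPM in MC903 ears and 14.5, 18.4 and 24.8 CPM in control ears. Its groups did not overlap either. It was 10.6-fold higher in MC903 ears than in control ears (log2 3.41 ± 0.39, edgeR adjusted p = 0.000382). Its change of -1.15 ± 0.36 in MC903 + paeonol ears against MC903 ears was just short of a call (95% interval -2.01 to -0.29, adjusted p = 0.0529) and was called by DESeq2 (adjusted p = 0.0111). Sprr3, known in mouse from the forestomach and oral lining, had 0 counts in all 9 libraries, each of which is under the floor of 12 counts set for these data. Sprr4 was not tested, with 2, 9 and 4 counts in MC903 + paeonol ears, 0, 0 and 4 in MC903 ears and 35, 11 and 9 in control ears. The ratio of its mean counts was 0.0814 in MC903 ears to control ears (exact Poisson 95% interval 0.00192 to 0.535, on counts divided by 4, covering counting error only).

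Sprr2a1 and Sprr2a2 had the highest mean CPM of the Sprr2 features. Sprr2a1 was at 1331, 2019 and 2918 CPM in MC903 + paeonol ears, 1609, 1828 and 1677 CPM in MC903 ears and 52.7, 253 and 128 CPM in control ears. Both MC903 groups were far above control and overlapped each other. It was 11.8-fold higher in MC903 ears than in control ears (log2 3.56 ± 0.62, edgeR adjusted p = 0.00332) and changed by 0.29 ± 0.56 in MC903 + paeonol ears against MC903 ears (95% interval -1.05 to 1.64, adjusted p = 0.754). Sprr2a2, whose gene model overlaps that of Sprr2a1 on the same strand and whose coding sequence is 100% identical, had values close to these, at 3.44 and 0.36. The counts of Sprr2a1, Sprr2a2 and Sprr2a3 cannot be told apart with certainty, since 92.5%, 92.8% and 36.2% of the 100-base stretches of their transcripts also occur in another of the members.

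Sprr2h was at 93.8, 138 and 202 CPM in MC903 + paeonol ears, 186, 160 and 175 CPM in MC903 ears and 4.53, 8.17 and 6.56 CPM in control ears. It was 27.1-fold higher in MC903 ears than in control ears (log2 4.76 ± 0.35, edgeR adjusted p = 3.17e-05), 22.5-fold higher in MC903 + paeonol ears than in control ears (4.49 ± 0.35, 0.000155), and its values in the 2 groups given MC903 overlapped (-0.27 ± 0.30, 95% interval -0.96 to 0.43, 0.568). Sprr2k was at 1.82, 2.25 and 3.72 CPM in MC903 + paeonol ears, 2.86, 2.86 and 3.10 CPM in MC903 ears and 0.064, 0.0656 and 0.203 CPM in control ears. Its control libraries held 4, 4 and 12 counts, and the ratio to control was 26.9 in MC903 ears (exact Poisson 95% interval 11.2 to 84.3) and 23.5 in MC903 + paeonol ears (9.77 to 74.0), both on counts divided by 4.

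Sprr2b was the feature of the class with the widest separation from control in MC903 + paeonol ears. It was at 106, 178 and 399 CPM in MC903 + paeonol ears, 92.8, 72.0 and 64.5 CPM in MC903 ears and 1.92, 5.69 and 3.65 CPM in control ears. The groups did not overlap, and the MC903 + paeonol libraries were highest. It was 60.6-fold higher in MC903 + paeonol ears than in control ears (log2 5.92 ± 0.69, edgeR adjusted p = 0.00117) and 20.4-fold higher in MC903 ears than in control ears (4.35 ± 0.65, 0.00166). Between MC903 + paeonol and MC903 ears it changed by 1.57 ± 0.55 (95% interval 0.24 to 2.91, edgeR adjusted p = 0.0807), and it was called by DESeq2 (0.0234) and without MC903 + paeonol library 1 (0.0432). Sprr2f and Sprr2j-ps were the 2 tested features of the class not called in MC903 against control ears, at 1.62 ± 0.58 (edgeR adjusted p = 0.0506) and 0.31. Sprr2f was called by DESeq2 (adjusted p = 0.0219) and in 4 other edgeR fits, namely with DESeq2 size factors (0.0498), at a mean CPM of at least 1 (0.043), on counts divided by 4 (0.0371) and without MC903 library 3 (0.0279). Sprr2c-ps had at most 4 counts in a library and was not tested.

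**Figure D4:**
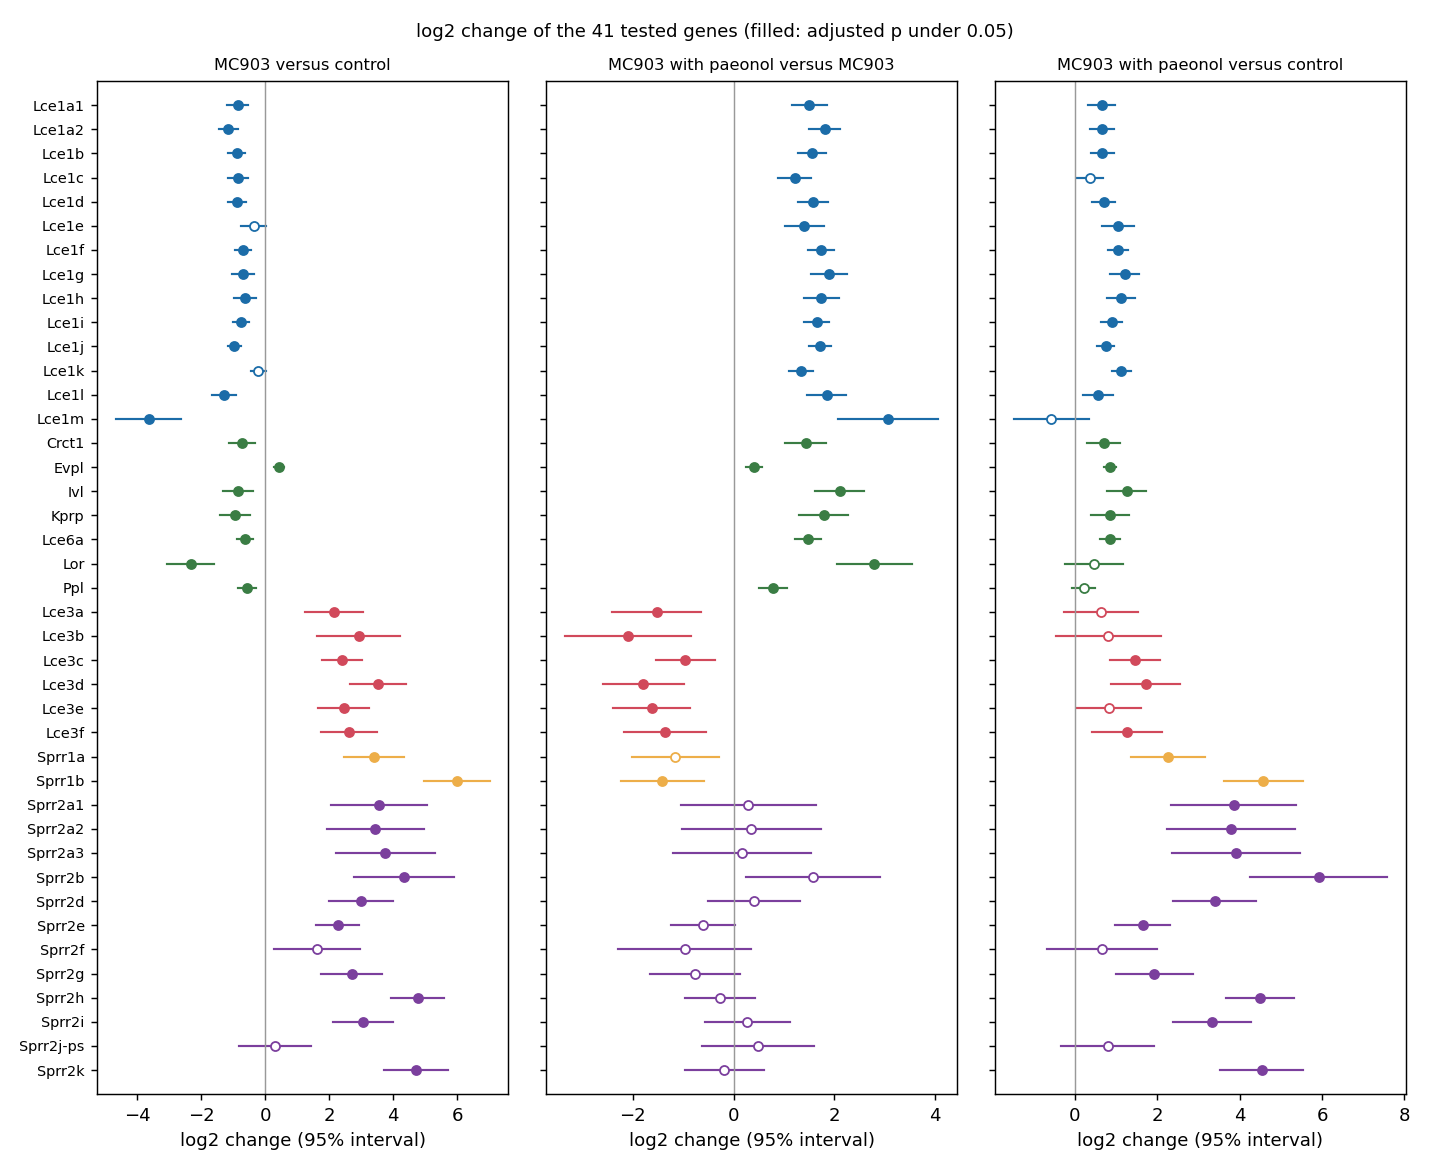
log2 change (point) with its 95% interval (line) of the 41 tested genes for MC903 versus control, MC903 + paeonol versus MC903 and MC903 + paeonol versus control; filled points had an adjusted p under 0.05. In the middle panel all 14 Lce1 genes and the 7 single genes lie above 0, the 6 Lce3 genes and Sprr1 below it, and the Sprr2 intervals are wide.

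The libraries of a group differed in how high Sprr2 was. In MC903 + paeonol ears, library 3 was the highest for 11 of 12 Sprr2 features and library 1 the lowest for 10, and the highest library exceeded the lowest by a median of 2.17-fold. In MC903 ears this ratio was 1.28, and in control ears it was 3.07, with library 1 the lowest for 12 of 12 and library 2 the highest for 10. For Lce1 the same ratios were 1.27, 1.26 and 1.33. Summed stress keratins (Krt6a, Krt6b, Krt16 and Krt17) were at 4937, 6475 and 9018 CPM in MC903 + paeonol ears, 20684, 21925 and 20242 CPM in MC903 ears and 575, 1267 and 1168 CPM in control ears. Their lowest MC903 + paeonol and control libraries were thus the same as for Sprr2. Summed hair follicle markers were at 420, 700 and 1313 CPM in MC903 + paeonol ears, 722, 669 and 792 CPM in MC903 ears and 81.6, 115 and 74.8 CPM in control ears. Most of the follicle sum was Tchh, an inner root sheath protein that was picked out after its values were seen, with a mean of 749 CPM in MC903 + paeonol ears. By gene, 1 of 9 follicle markers was higher and 3 lower in MC903 ears than in control ears, with a median log2 change of -0.98. Of all tested features, 23.0% were higher and 23.8% lower there. The follicle sum thus did not speak for most of its genes. The part of these genes in the Sprr2 values was not tested.

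Markers of other cells moved with the groups too. The summed level of 7 basal keratinocyte markers was 20034 to 21331 CPM in MC903 + paeonol ears, 20609 to 21748 CPM in MC903 ears and 14971 to 16757 CPM in control ears. That of 6 suprabasal markers was 26587 to 30487 CPM, 6640 to 14110 CPM and 6319 to 9306 CPM in the same groups. In MC903 ears the basal sum was above control, and the suprabasal sum overlapped control. By gene, 2 of 7 basal markers were higher and 3 lower in MC903 ears than in control ears. Of 6 suprabasal markers, 1 was higher and 2 lower there, against 23.0% and 23.8% of all tested features. In MC903 + paeonol ears 5 of 6 suprabasal markers were higher than in MC903 ears, against 15.3% of all tested features. All 8 skeletal muscle markers and all 6 adipocyte markers were lower in both MC903 groups than in control ears. Of all tested features, 23.8% were lower than control in MC903 ears and 14.5% in MC903 + paeonol ears. Summed skeletal muscle markers were 2351 to 3034 CPM in MC903 + paeonol ears, 1894 to 2486 CPM in MC903 ears and 4183 to 6247 CPM in control ears, and sebaceous markers were 2703 to 3758 CPM, 490 to 1135 CPM and 5040 to 6769 CPM. Macrophage markers were 263 to 403 CPM, 883 to 993 CPM and 433 to 461 CPM, and neutrophil markers 267 to 302 CPM, 242 to 355 CPM and 85.5 to 331 CPM. By gene, 3 of 6 sebaceous markers were lower than control in MC903 ears and 1 of 6 in MC903 + paeonol ears, and 0 were higher in either. Their median log2 change against control was -0.85 in MC903 ears and -0.04 in MC903 + paeonol ears. The part of these cells in the results was not tested.

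Single keratins differed within these sums. Krt5 and Krt14, of basal cells, averaged 7589 ± 124 and 10050 ± 914 CPM in MC903 + paeonol ears, 5588 ± 141 and 13643 ± 470 CPM in MC903 ears and 6402 ± 355 and 5527 ± 267 CPM in control ears. Krt10, the suprabasal keratin, averaged 16109 ± 2503 CPM in MC903 + paeonol ears, 2712 ± 1936 in MC903 ears and 3047 ± 848 in control ears. It changed by 2.57 ± 0.53 on the log2 scale in MC903 + paeonol ears against MC903 ears (edgeR adjusted p = 0.0123) and by -0.17 ± 0.50 in MC903 ears against control ears (0.816). Krt1, its partner, changed by 0.55 ± 0.21 (0.0893) and 2.03 ± 0.22 (0.000119) in these comparisons. In MC903 ears Krt1 was thus higher than in control ears, whereas Lor, known as a marker of the granular layer above, was lower.

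Of the enzymes that cross-link the envelope, Tgm1 and Tgm3 did not follow Lor. Tgm5 rose with paeonol added, as Lor did, but was not called in MC903 against control ears. Tgm1, the transglutaminase of the keratinocyte membrane, averaged 174 ± 20.0 CPM in MC903 + paeonol ears, 166 ± 15.9 in MC903 ears and 80.8 ± 23.1 in control ears. Tgm3 averaged 271 ± 48.3, 376 ± 16.6 and 94.1 ± 7.28 CPM, and Tgm5 60.2 ± 10.6, 33.7 ± 4.92 and 29.8 ± 4.49 CPM in the same groups. In MC903 ears against control ears Tgm1 rose by 1.04 ± 0.19 (edgeR adjusted p = 0.0024) and Tgm3 by 2.00 ± 0.11 (4.87e-07) on the log2 scale, and Tgm5 was not called (0.18 ± 0.15, 0.373). In MC903 + paeonol ears against MC903 ears Tgm5 rose by 0.84 ± 0.15 (0.00226), Tgm3 fell by 0.47 ± 0.11 (0.00755) and Tgm1 was not called (0.06 ± 0.19, 0.845).

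Of 28 other tested proteins of the envelope and granular layer, 16 were higher and 4 lower in MC903 ears than in control ears, against 23.0% and 23.8% of all tested features. In MC903 + paeonol ears 14 were higher and 4 lower than in MC903 ears (15.3% and 14.3% of all), and 24 were higher and 0 lower than in control ears (16.3% and 14.5% of all). Asprv1, a protease that processes filaggrin, went with Lce1: it averaged 1804 ± 228 CPM in MC903 + paeonol ears, 448 ± 103 in MC903 ears and 809 ± 201 in control ears, and all 3 comparisons were called. S100a11 and Anxa1, which are envelope substrates, and S100a10 went with Lce3, with log2 changes of 1.01, 0.75 and 0.37 in MC903 ears against control ears and of -0.55, -0.20 and -0.50 in MC903 + paeonol ears against MC903 ears, all called. Casp14, a protease of cornifying cells, rose by 2.24 ± 0.15 in MC903 ears against control ears (edgeR adjusted p = 2.01e-06) and was at -0.11 ± 0.14 in MC903 + paeonol ears against MC903 ears (0.617). The desmosomal genes Pkp1 and Jup rose in MC903 ears against control ears by 1.11 and 0.78, as Evpl did, and in MC903 + paeonol ears against MC903 ears were at 0.18 (not called) and 0.39 (called).

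Of 21 tested transcription factors of late differentiation, 11 were higher and 2 lower in MC903 ears than in control ears, against 23.0% and 23.8% of all tested features. In MC903 + paeonol ears 9 were higher and 5 lower than in MC903 ears (15.3% and 14.3% of all), and 16 were higher and 0 lower than in control ears (16.3% and 14.5% of all). Gata3 averaged 72.1 ± 1.42 CPM in MC903 + paeonol ears, 25.4 ± 1.85 in MC903 ears and 71.5 ± 8.36 in control ears, the order of groups seen for Lor. Its log2 change was -1.49 ± 0.09 in MC903 ears against control ears (edgeR adjusted p = 4.91e-07) and 1.50 ± 0.09 in MC903 + paeonol ears against MC903 ears (1.91e-06). Cebpa changed by -0.45 ± 0.09 and 1.03 ± 0.09 in these comparisons, both called. Nfe2l2, which codes for the oxidative stress factor Nrf2, a known activator of Sprr2 genes in mouse epidermis, moved the other way, by 1.34 ± 0.08 (3.98e-07) and -0.81 ± 0.07 (2.26e-05). It averaged 103 ± 11.1 CPM in MC903 + paeonol ears, 181 ± 5.11 in MC903 ears and 71.4 ± 2.10 in control ears. Ovol1 and Zfp750, regulators of terminal differentiation, rose by 1.04 and 1.19 in MC903 ears against control ears and were at 0.21 and 0.02 in MC903 + paeonol ears against MC903 ears, not called. Hopx was at -0.01 and 0.85 in these comparisons, and the second was called.

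Sequence likeness limits how far single genes can be told apart. Pairs of Lce3 genes were 94.3% to 99.3% identical over the aligned coding sequence (median 97.6%), and Lce1 pairs 43.6% to 95.7% (median 83.4%). Of the 100-base stretches of the transcripts, 24.1% in Lce3c, 28.3% in Lce3d, 36.4% in Lce3e and 43.0% in Lce3f occurred in another member, against 1.08% in Lce3b and 0 in Lce3a. Lce3a and Lce3b, whose transcripts are nearly free of such stretches, changed in the same directions as the other 4 in MC903 ears and with paeonol. Over the coding sequence, however, Lce3a was 98.0% identical to Lce3d, and Lce3b 97.3% to Lce3c. Stretches with a few differences were not counted, and whether reads were assigned to the wrong Lce3 gene was not tested. In Lce1, Sprr1 and the single genes, 100-base stretches found in another member made up at most 4.90% of a transcript.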

How the data were processed

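Per the labels' protocols, poly(A) RNA was sequenced from libraries with a dUTP-labelled second strand. The submitters' processing notes name the build GRCm38 and the tools StringTie 1.3.4d, HISAT2 2.0.4 and cutadapt. Annotation and strand setting, not given in the sources used here, were not assumed. The deposited values are whole numbers and were treated as estimated counts per gene, unscaled between libraries. The value 4 occurred 1.90 to 2.23 times as often as its neighbours on average, so the floor was set at 12 counts per library, and low counts were compared as ratios on counts divided by 4; this covers counting error only. Of 55401 features, 55141 had a GENCODE M21 symbol.

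All 9 libraries were fitted together in edgeR 4.0.16 (R 4.3.3) with TMM scaling, filterByExpr (minimum count 10, minimum total 15), robust quasi-likelihood dispersions and a coefficient for each group. Tests were two-sided. Standard errors were derived from each change and its F value. Replicates of a group differed by more than counting noise (chi-square over its degrees of freedom 6.51 to 14.4). Alternatives were DESeq2 1.42.0, its size factors, library totals, no filter, a mean CPM of at least 1, fits of 2 groups, counts divided by 4, the replicate number as a block, and each library left out.

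Members and gene lists were chosen with earlier results of these data known. Genes named with full values were the single genes and, in each class, the 2 with the highest mean CPM and the 2 largest called changes per comparison; in the lists of other genes they were Tgm1, Tgm3, Tgm5, Krt1, Krt10, Krt5 and Krt14 and the 3 smallest p-values per comparison. Protein sequences were not used here, so likeness between genes was taken from coding sequence and from 100-base stretches of GENCODE M21 transcripts.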

Additional observations from a re-analysis of the deposited data

How the results depend on the processing

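Over 17 alternative settings, 100 of the 123 results (41 genes, each in 3 comparisons) kept their direction and their side of the threshold. Features called in all numbered 9012 to 10809 in MC903 against control ears, 5065 to 7287 in MC903 + paeonol against MC903 ears and 5216 to 7527 in MC903 + paeonol against control ears. The number of members called lower in MC903 + paeonol than in MC903 ears was 7, and 2 to 8 with a library left out (2 without MC903 library 2, 3 without MC903 + paeonol library 2, 4 without MC903 + paeonol library 1); the calls lost were of Lce3 genes and Sprr1b, whose changes stayed negative. The labels state no pairing of libraries by replicate number. Deviations from the group mean in libraries of the same number had correlations of -0.0113 to 0.04 over all tested features. Such a value over all features cannot decide whether the libraries were paired. With the replicate number as a block, 1 member was called lower in MC903 + paeonol than in control ears, against 0 without the block; this was Lce1m (-0.56, adjusted p = 0.00283). Lce1c was called higher there under the block (0.36, adjusted p = 0.0146). Uncalled changes between MC903 + paeonol and MC903 ears turned sign for 5 Sprr2 genes when a library was left out. Sprr2k was at -0.53 to 0.025 over these fits, above 0 without MC903 + paeonol library 1. Below 0 without MC903 + paeonol library 3 were Sprr2a1 (-0.025 to 0.54), Sprr2a3 (-0.19 to 0.41), Sprr2d (-0.00025 to 0.64) and Sprr2i (-0.15 to 0.50). The number of single genes called higher in MC903 + paeonol than in control ears was 5, and 3 without control library 2. Sprr3, Sprr4, Lelp1 and Sprr2c-ps had too few counts at this depth to be tested. The cause of these shifts was not tested.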
